A study of Mus musculus with 10 samples.

Results

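TTGCGC, a C/EBP half-site core with CG in its middle, occurs in 48 of the 32896 distinct 8-mers that a protein binding microarray scores when each 8-mer is merged with its reverse complement. These 48 8-mers were chosen by sequence alone, as every 8-mer that holds TTGCGC on either strand. In 16 of them the core takes bases 1 to 6, in 16 it takes bases 2 to 7, and in 16 it takes bases 3 to 8. The core brings 1 CG, and in 10 of the 48 the flanking bases make a second CG, so that 38 have 1 CG and 10 have 2 CG. A total of 565 of the 40330 probes on an array hold the core. One member, TTGCGCAA, reads the same on both strands and lies on 17 probes, while the other members lie on 32 to 38 probes each.

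DNA-binding domains of the mouse bZIP proteins CEBPB and CREB1 were bound to double-stranded DNA arrays as fusions to GST, an affinity tag, after synthesis in a cell-free system, and bound protein was read as Cy5 fluorescence. The 10 arrays form 5 groups of 2. These are CEBPB(V285A) on methylated DNA, CREB1(A297V) on methylated DNA, CEBPB(V285A) on unmethylated DNA, CREB1(A297V) on unmethylated DNA and wild-type CREB1 on unmethylated DNA. V285A and A297V are amino acid substitutions made in the DNA-binding domain of each protein by site-directed mutagenesis. Methylated arrays were treated for 3 h with M.SssI, a bacterial enzyme that methylates the cytosine of every CG, on both strands. Wild-type CEBPB and methylated arrays of wild-type CREB1 were not analysed here, so the mutants can be set against wild-type CREB1 on unmethylated DNA only. All groups are isolated domains on naked DNA, without the rest of the protein or a dimer partner of another family member. The labels do not say whether replicate arrays used different protein preparations. The p-values therefore reflect array-to-array spread, and that spread may be technical only.

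Proteins of the bZIP family bind DNA as dimers, and the basic region of each monomer contacts one side of a short palindrome. C/EBP proteins, known from the control of genes in liver, fat and immune cells, recognise the palindrome in which TTGCG and its reverse complement overlap at the central CG, with A or G before it and C or T after it as the preferred outer bases. CREB1, which acts on genes switched on by cyclic AMP, recognises the half-site TGACG instead. The core TTGCGC therefore holds one C/EBP half-site in full and the other in part.

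The sequences on which the results turn are shown here with the TTGCGC core in capitals and the flanking bases in lower case. The palindrome is in capitals throughout, because the core on one strand and the core on the other together cover it. The first set differs in a single base before the core and carries A after it, the second carries an extra CG at the edge of the core, and the third carries T or A before it.
palindrome: TTGCGCAA
A before, A after: aTTGCGCa
G before, A after: gTTGCGCa
C before, A after: cTTGCGCa
T before, A after: tTTGCGCa
A before, extra CG after: aTTGCGCg
G before, extra CG after: gTTGCGCg
extra CG after, then A: TTGCGCga
extra CG before: cgTTGCGC
A and T before: atTTGCGC
T and A before: taTTGCGC
T before, T after: tTTGCGCt
A and A before: aaTTGCGC

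Binding to an 8-mer is given as a Z-score. It is the median log2 signal of the probes that hold the 8-mer, corrected for place on the array, minus the median over all 8-mers, in units of the robust SD over all 8-mers of that array. Differences between groups are differences of Z, as estimate ± SE, and an 8-mer was called higher or lower at an adjusted p below 0.05 in a limma fit over all 32896 8-mers. Median spot signal ran from 345 to 1857 between arrays, and the signal was, in the median, 1.79 to 5.10 times the background. Over the 48 members, replicate arrays correlated at 0.990 and 0.966 for methylated CEBPB(V285A) and CREB1(A297V), at 0.988 and 0.753 for the unmethylated arrays of these proteins, and at 0.828 for CREB1. These values run across 8-mers that share probes, and overlapping members are not independent measurements. An array identifier in the deposited files is shared by CREB1(A297V) and CREB1 on unmethylated DNA and by both methylated groups. CEBPB(V285A) on unmethylated DNA has an identifier of its own, so differences between identifiers cannot be told apart from 4 of the 6 pairwise contrasts below.

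The palindrome was the strongest member for CEBPB(V285A), on both kinds of DNA. It had Z-scores of 18.6 and 17.9 on the methylated CEBPB(V285A) arrays and ranked 4 of all 32896 8-mers on each of them. On the unmethylated CEBPB(V285A) arrays it had 15.6 and 16.8, at ranks 28 and 10. CREB1(A297V) gave the palindrome 4.61 and 5.37 on methylated DNA and 1.08 and 3.16 on unmethylated DNA. On the CREB1 arrays it had 2.09 and 2.62, at ranks 1635 and 1442. The 4 CEBPB(V285A) arrays were thus all far above the other 6, and the methylated CREB1(A297V) arrays did not overlap the unmethylated arrays of CREB1(A297V) or CREB1. As a ratio to the array median, the palindrome's probe signal was 26.4-fold for methylated CEBPB(V285A), 1.98-fold for methylated CREB1(A297V), 9.73-fold for unmethylated CEBPB(V285A), 1.19-fold for unmethylated CREB1(A297V) and 1.29-fold for CREB1. The median spot signal was 345 and 357 for methylated CEBPB(V285A), 722 and 642 for methylated CREB1(A297V), and 735 and 738 for unmethylated CEBPB(V285A). It was 1470.5 and 1857 for unmethylated CREB1(A297V) and 1235 and 1516.5 for CREB1. No background was removed, so these folds do not compare spot signals between groups.

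For CEBPB(V285A) the other members were bound far less, while for unmethylated CREB1(A297V) and CREB1 the palindrome and the next members lay close together. Without the palindrome, the highest mean Z was 7.50 for methylated CEBPB(V285A), 2.97 for methylated CREB1(A297V), 7.57 for unmethylated CEBPB(V285A), 2.01 for unmethylated CREB1(A297V) and 2.53 for CREB1. The median over all 48 was 1.63 for methylated CEBPB(V285A), ranging from -0.364 to 18.2, and 0.488 for methylated CREB1(A297V), ranging from -0.729 to 4.99. On unmethylated DNA it was 1.34 for CEBPB(V285A) (-0.496 to 16.2), 0.316 for CREB1(A297V) (-0.902 to 2.12) and 0.391 for CREB1 (-0.686 to 2.53). A mean Z of 3 or more was reached by 14 of 48 members, or 29.2%, for methylated CEBPB(V285A), where 3.28% of all 8-mers reached it. For unmethylated CEBPB(V285A) the count was 10 of 48, or 20.8%, where 3.50% of all 8-mers reached it. Methylated CREB1(A297V) reached it with the palindrome alone, where 2.90% of all 8-mers did. Unmethylated CREB1(A297V) and CREB1 reached it with 0 of 48 members, where 1.68% and 2.69% of all 8-mers did. Apart from the palindrome, members therefore reached a mean Z of 3 only for CEBPB(V285A), and there only in some flanks. Probes that hold the palindrome also count for members with bases before the core that match their flanks, such as aTTGCGCa and gTTGCGCa. The levels of such members are thus not those of the half-site alone, and the part of the palindrome probes was not tested. The lowest members were TTGCGCcc for methylated CEBPB(V285A), tTTGCGCc for methylated CREB1(A297V), tTTGCGCt for unmethylated CEBPB(V285A), TTGCGCag for unmethylated CREB1(A297V) and atTTGCGC for CREB1.

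With A after the core, the base before it ordered the members for CEBPB(V285A). aTTGCGCa, with A before the core and the palindrome's first A after it, had Z of 7.86 and 7.14 for methylated CEBPB(V285A), 2.78 and 3.15 for methylated CREB1(A297V), 7.17 and 7.97 for unmethylated CEBPB(V285A), 1.15 and 2.25 for unmethylated CREB1(A297V), and 2.40 and 2.65 for CREB1. With G before the core and the same A after it, gTTGCGCa averaged 5.56 ± 0.199 for methylated CEBPB(V285A), 0.834 ± 0.0803 for methylated CREB1(A297V), 5.06 ± 0.147 for unmethylated CEBPB(V285A), 0.569 ± 0.00568 for unmethylated CREB1(A297V) and 1.05 ± 0.359 for CREB1 (SD, n = 2 each). The CEBPB(V285A) values of these A and G members were above every array of the other proteins. With C before the core, cTTGCGCa averaged 2.95 ± 0.627 on methylated and 3.08 ± 0.853 on unmethylated CEBPB(V285A) arrays, and between 0.372 and 0.542 in the other groups. With T there, tTTGCGCa averaged 0.854 ± 0.000514 for methylated CEBPB(V285A), 0.919 ± 0.170 for methylated CREB1(A297V), 0.669 ± 0.243 for unmethylated CEBPB(V285A), 0.0656 ± 0.260 for unmethylated CREB1(A297V) and 0.130 ± 0.0821 for CREB1. A T before the core thus left CEBPB(V285A) near the array median even with A after it.

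The same order held for CEBPB(V285A) over the 16 members with 1 base on each side of the core. For methylated CEBPB(V285A) their median Z was 3.79 with A before, 3.10 with G, 1.07 with C and 0.486 with T. For unmethylated CEBPB(V285A) it was 2.55 with A before, 1.69 with G, 1.02 with C and 0.306 with T. A and G before the core had higher medians than C and T in 9 of 10 arrays, the exception being methylated CREB1(A297V) replicate 2, where T before (0.737) was above G before (0.649). T before the core had the lowest median in 7 of 10 arrays. After the core, A gave a median of 4.25, G 3.10, C 1.07 and T 0.887 for methylated CEBPB(V285A), and A gave 4.07, G 1.69, C 1.01 and T 0.443 for unmethylated CEBPB(V285A). A after the core was highest in 8 of 10 arrays. Each of these medians rests on 4 members and is a description. The members with A after the core share probes with the palindrome, and this was not separated from the base itself.

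Members with 2 bases before the core also differed in their medians by the outer base. tgTTGCGC averaged 4.60 ± 0.0949 for methylated CEBPB(V285A), 0.949 ± 0.530 for methylated CREB1(A297V), 4.27 ± 0.315 for unmethylated CEBPB(V285A), 1.36 ± 0.236 for unmethylated CREB1(A297V) and 2.14 ± 0.322 for CREB1 (SD, n = 2 each). By the outer base, the median for unmethylated CEBPB(V285A) was 2.39 with T, 1.73 with C, 1.06 with A and 1.03 with G, and for CREB1 it was 1.04 with T, 0.416 with C, 0.213 with A and 0.203 with G. T as the outer base had the highest median in these groups, and for methylated CEBPB(V285A) as well, at 3.45 against 1.82 with C, 1.47 with G and 1.45 with A. Each of these medians rests on 4 members and is a description. For unmethylated CEBPB(V285A), members with outer T ranged from 1.31 to 4.27 and those with outer C from 0.368 to 3.12.

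For CEBPB(V285A), no member that lacked one of the A bases completing the palindrome came near its level. Among 8-mers that start with the core, TTGCGCat, with the first A kept, averaged 3.65 ± 0.321 for methylated and 3.63 ± 0.495 for unmethylated CEBPB(V285A). TTGCGCca, with the final A kept, averaged 4.52 ± 0.904 for methylated and 3.76 ± 0.142 for unmethylated CEBPB(V285A). TTGCGCga, which keeps the final A and adds a CG, averaged 4.56 ± 0.649 for methylated and 2.00 ± 0.104 for unmethylated CEBPB(V285A) (SD, n = 2 each). The 6 8-mers with exactly one of the A bases in place ranged from 1.15 to 4.56 for methylated and from 0.741 to 3.76 for unmethylated CEBPB(V285A), against 18.2 and 16.2 for the palindrome.

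The probes that hold the palindrome differed widely in signal. On the printed strand, 16 of the 17 probes carry each of the 16 pairs of base before and base after once. The other 1 has the palindrome at the end of its variable region, next to the linker. None of the 17 also holds TGACG, the CREB1 half-site, or TTACG, its variant with T as the second base. The 3 probes with the highest and the 3 with the lowest log2 signal on unmethylated CEBPB(V285A) arrays are shown as the 35-base variable region, with the palindrome in capitals.
probe ranked 1: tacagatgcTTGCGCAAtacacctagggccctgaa
probe ranked 2: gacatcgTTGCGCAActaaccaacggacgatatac
probe ranked 3: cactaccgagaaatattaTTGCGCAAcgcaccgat
probe ranked 15: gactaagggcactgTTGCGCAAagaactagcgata
probe ranked 16: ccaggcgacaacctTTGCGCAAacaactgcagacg
probe ranked 17: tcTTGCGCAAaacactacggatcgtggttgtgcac

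All 3 of the lowest probes have A after the palindrome, and all 3 of the highest have C or T there. However, the remaining probe with A after it, which also has A before it, ranked 4. In log2 units above the local array median, the probe ranked 1 read 6.44 and 6.61 on methylated and 5.73 and 5.36 on unmethylated CEBPB(V285A) arrays. The probe ranked 17, with C before and A after, read 0.476 and 0.555 on methylated and 0.0133 and -0.124 on unmethylated CEBPB(V285A) arrays. A full palindrome was thus present on a probe whose signal stayed at the array median on unmethylated DNA. Read on the other strand, this probe has T before and G after, as does the probe ranked 14 on its printed strand. That probe averaged 3.49 on methylated and 2.27 on unmethylated CEBPB(V285A) arrays. The palindrome with the same outer bases thus gave unlike signals on different probes. The ranks rest on the unmethylated CEBPB(V285A) arrays, so the methylated arrays are the values they did not use. On the methylated arrays the probes ranked 2 and 3 averaged 6.20 and 6.72, and those ranked 15 and 16 averaged 3.54 and 0.553.

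Grouped by these outer bases, the 4 probes with A or G before and C or T after had a median of 6.20 (5.69 to 6.72) for methylated and 5.08 (4.23 to 5.42) for unmethylated CEBPB(V285A). The 8 probes with such a base on one side had a median of 4.45 (3.25 to 6.52) for methylated and 3.53 (2.02 to 5.54) for unmethylated CEBPB(V285A). The 4 probes with C or T before and A or G after had a median of 2.02 (0.515 to 3.82) for methylated and 1.42 (-0.0552 to 2.47) for unmethylated CEBPB(V285A). The class medians fell in this order in 9 of 10 arrays, CREB1 replicate 2 being the exception, and the first and last classes did not overlap in 7 of 10 arrays. The favoured outer bases are those of the C/EBP site given above as background. Other bases of each probe also differ between these classes, and their part was not tested.

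Cores that differ from TTGCGC by 1 to 3 bases were set in the same flanks. For unmethylated CEBPB(V285A) the median Z over 48 8-mers was 12.6 with TGACGT, the core of the cyclic AMP site, 8.63 with TTACGT, 3.65 with TTGCGT, 1.34 with TTGCGC, 0.704 with TTGCAC and 0.0571 with TTGTGC. For methylated CEBPB(V285A) the same order was 8.53 with TGACGT, 7.76 with TTACGT, 4.52 with TTGCGT, 1.63 with TTGCGC, 0.863 with TTGCAC and 0.258 with TTGTGC. No member lay above its counterpart with TGACGT or with TTACGT in any of the 5 groups. The exchange of the last C of the core for T, which gives TTGCGT, went with a higher level in 47 of 48 flanks for unmethylated CEBPB(V285A) and in 41 of 48 for methylated CEBPB(V285A). Counterparts without the central CG were lower for CEBPB(V285A): members were above TTGCAC in 41 of 48 flanks on methylated and 39 of 48 on unmethylated DNA, and above TTGTGC in 47 of 48 and 44 of 48. For CREB1(A297V) they were above TTGCAC in 15 of 48 flanks on methylated and 18 of 48 on unmethylated DNA, and above TTGTGC in 36 of 48 and 32 of 48. For CREB1 the counts were 34 of 48 for TTGCAC and 41 of 48 for TTGTGC. These counts are descriptions over 8-mers that share probes, and the TTGCAC and TTGTGC counterparts of the palindrome are the same 8-mer.

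CEBPB(V285A) bound the members more than CREB1 did on unmethylated DNA. Of the 48 members, 21 were called higher, where 3.67% of all 8-mers were higher, and 0 were called lower, where 2.53% were. At an unadjusted p below 0.05 limma gave 31 higher and 0 lower. The median difference was 0.83, against 0.01 over all 8-mers, and 43 of 48 differences were positive. The palindrome differed by 13.83 ± 1.25 (adjusted p = 4.35e-06), aTTGCGCa by 5.04 ± 0.59 (adjusted p = 6.46e-05), gTTGCGCa by 4.01 ± 0.38 (adjusted p = 6.65e-06) and cTTGCGCa by 2.70 ± 0.41 (adjusted p = 0.000944). These 4 calls held with each array left out in turn, while tTTGCGCa, with T before the core, differed by 0.54 ± 0.26 (adjusted p = 0.234). Calls were made for 9 of 16 members with A or G before the core, 4 of 8 with C and 1 of 8 with T. They were also made for 6 of 8 members with A after the core, 2 of 8 with G, 3 of 8 with C and 2 of 8 with T. In the other cores, TTGCGT had 26 of 48 8-mers higher and 1 lower, TTGCAC 9 higher and 1 lower, TTGTGC 6 higher and 0 lower, and TGACGT 0 in either direction. TTACGT had 3 of 48 higher and 1 lower, though its median difference was 1.80, and that of TTGCGT was 1.71. Leaving out CEBPB(V285A) replicate 1 lowered the count to 7, leaving out its replicate 2 to 10, and leaving out CREB1 replicate 1 to 12. With the authors' deposited Z-scores the palindrome differed by 77.3 with an adjusted p of 0.685.

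Few members were called between CREB1(A297V) and CREB1 on unmethylated DNA. No member was called higher, where 8.13% of all 8-mers were, and 2 were called lower, where 10.8% were. Without adjustment, limma gave 1 higher and 8 lower at a p below 0.05. The median difference was -0.27, against 0.02 over all 8-mers, and 9 of 48 differences were positive. TTGCGCgt had 0.480 and 0.303 on the CREB1(A297V) arrays and 1.30 and 2.30 on the CREB1 arrays, a difference of -1.41 ± 0.36 (adjusted p = 0.0108). tcTTGCGC had -0.0708 and -0.297 on the CREB1(A297V) arrays and 0.520 and 1.51 on the CREB1 arrays, a difference of -1.20 ± 0.33 (adjusted p = 0.0156). Neither pair of arrays overlapped, but both calls were lost without CREB1 replicate 2, at -0.91 for TTGCGCgt and -0.70 for tcTTGCGC, and the second also without CREB1(A297V) replicate 2, at -1.08. The palindrome differed by -0.24 ± 1.25 (adjusted p = 0.919), an error too wide to show that the proteins bind it alike, and its sign turned without CREB1 replicate 2 (0.0236) or CREB1(A297V) replicate 1 (0.80). For comparison, 46 of 48 8-mers with TGACGT and 27 of 48 with TTGCGT were lower for CREB1(A297V). The count of members rose to 8 without CREB1 replicate 1 and to 4 (1 higher, 3 lower) without CREB1(A297V) replicate 1, and it was 0 without CREB1 replicate 2. It was also 0 when only the 4 arrays of these groups, which share an identifier, were fitted.

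CEBPB(V285A) bound the members more than CREB1(A297V) on both kinds of DNA. On methylated DNA, 33 of 48 members were called higher and 0 lower, where 6.75% and 5.49% of all 8-mers were. On unmethylated DNA, 31 of 48 were called higher and 0 lower, where 14.1% and 11.5% of all 8-mers were. Unadjusted p-values below 0.05 in limma were all on the higher side, with 36 members on methylated and 34 on unmethylated DNA. The median difference was 1.31 on methylated DNA, against 0.06 over all 8-mers, and 1.03 on unmethylated DNA, against -0.01 over all 8-mers. In the same flanks on unmethylated DNA, 45 of 48 TGACGT, 43 TTGCGT, 38 TTACGT, 10 TTGTGC and 7 TTGCAC 8-mers were higher. On methylated DNA the higher calls were 36 of 48 for TTGCGT, 10 for TTACGT, 9 for TGACGT, 8 for TTGCAC and 7 for TTGTGC. Lower calls were 4 for TTGCAC and 2 for TTGTGC on unmethylated DNA, and 2 for TTGCAC on methylated DNA. The difference was thus not particular to TTGCGC. The palindrome differed by 13.25 ± 1.25 on methylated DNA (adjusted p = 1.27e-06) and by 14.07 ± 1.25 on unmethylated DNA (adjusted p = 1.20e-06). On methylated DNA the next called differences were 4.72 ± 0.38 for gTTGCGCa and 4.58 ± 0.40 for TTGCGCca, and on unmethylated DNA they were 5.87 ± 0.59 for aTTGCGCa and 4.49 ± 0.38 for gTTGCGCa. By the base before the core, the methylated calls covered 16 of 16 members with A or G, 6 of 8 with C and 0 of 8 with T. The unmethylated calls covered 13 of 16 with A or G, 6 of 8 with C and 3 of 8 with T. tTTGCGCa differed by -0.06 ± 0.26 on methylated DNA (adjusted p = 0.906). The methylated count fell to 21 without CEBPB(V285A) replicate 1 on methylated DNA, and it was 35 with the 4 methylated arrays alone, which share an identifier. Probes lie at other places on the methylated CREB1(A297V) arrays, where 0% of them share the position of the first array, and this cannot be told apart from that group.

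CEBPB(V285A) bound a few members more on methylated DNA, led by a pair with a second CG. On methylated against unmethylated DNA, 7 of 48 members were called higher, where 3.84% of all 8-mers were, and 0 were called lower, where 3.73% were. The unadjusted limma counts at a p below 0.05 were 14 higher and 1 lower. The median difference was 0.41, against 0.01 over all 8-mers and -0.16 over all 8-mers with a CG. TTGCGCga had 5.02 and 4.10 on methylated and 2.07 and 1.93 on unmethylated DNA, a difference of 2.56 ± 0.37 (adjusted p = 0.00132). gTTGCGCg had 4.84 and 4.03 on methylated and 1.90 and 2.09 on unmethylated DNA, a difference of 2.44 ± 0.36 (adjusted p = 0.00137). taTTGCGC, which has only the central CG, had 4.72 and 5.18 on methylated and 2.75 and 2.53 on unmethylated DNA, a difference of 2.31 ± 0.37 (adjusted p = 0.00224). The groups did not overlap for any of these, and the 3 calls held with each array left out in turn. The other 4 called members were cgTTGCGC, aTTGCGCg, gaTTGCGC and atTTGCGC, with differences of 2.05, 1.65, 1.34 and 0.94, and these were lost without any 1 of the 4 arrays compared, which left 3. With those arrays left out, the difference of cgTTGCGC stayed at 2.00 to 2.10, while that of aTTGCGCg ranged from 1.29 to 2.00, that of gaTTGCGC from 1.11 to 1.58 and that of atTTGCGC from 0.71 to 1.16. The call of aTTGCGCg was also lost without either methylated CREB1(A297V) array, since these arrays share the estimate of spread.

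Split by sequence, 4 of 10 members with 2 CG and 3 of 38 with 1 CG were called higher on methylated CEBPB(V285A) arrays, with median differences of 0.86 and 0.28. The difference between these shares was not tested. In the same flanks, TTGCAC 8-mers that keep the flanking CG but lack the central one gave 0 of 10 calls and a median difference of 0.34, and TTGTGC gave 1 of 10 and 0.04. In the other 38 flanks, where these counterparts hold no CG, TTGCAC gave 5 and TTGTGC 4 higher calls, against 3 of 38 members. Over all 48 flanks each of the TTGCAC and TTGTGC sets had 5 higher calls, against 7 members. TTGCGT, which keeps the central CG, had 2 of 48 higher and 0 lower, with a median difference of 0.03. TTACGT, which also keeps it, had 0 of 48 higher and 2 lower. TGACGT 8-mers moved the other way, with 0 of 48 higher and 23 of 48 lower on methylated DNA. By the base before the core, 5 of 16 members with A or G, 0 of 8 with C and 1 of 8 with T were higher. The central CG was present in all of these, and the 4 members with A after the core and 1 base before it differed by -0.14 to 0.50, with no call.

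For the palindrome, whether methylation passed the test depended on the scale, the background correction and the normalization between arrays. On methylated against unmethylated CEBPB(V285A) arrays it differed by 2.06 ± 1.25 in Z (adjusted p = 0.321), although its arrays did not overlap. As a median-centred log2 score, not divided by the spread of each array, it differed by 1.44 (adjusted p = 3.89e-06), and with normexp background correction by 3.73 in Z (adjusted p = 0.0226). With quantile normalization it differed by 4.44 (adjusted p = 0.0242), and with a trimmed mean over probes by -0.0148 (adjusted p = 0.994). The robust SD that divides the scores was 0.253 and 0.265 log2 units on the methylated and 0.206 and 0.200 on the unmethylated CEBPB(V285A) arrays. It was 0.199 and 0.197 on the methylated and 0.146 and 0.112 on the unmethylated CREB1(A297V) arrays. In undivided log2 units above the local array median, 15 of the 17 probes that hold the palindrome were higher on methylated CEBPB(V285A) arrays. The median difference was 1.03, with a range of -0.128 to 1.68. The median spot signal was lower on the methylated CEBPB(V285A) arrays, at 345 and 357 against 735 and 738. The probe values are thus relative to the array median and are not differences in spot signal. Over all members the undivided score raised the count from 7 to 30 of 48, all of them higher, where 15.8% of all 8-mers were higher and 14.6% lower on that scale. Scale, median spot signal, array identifier and methylation move together in this comparison, and their parts cannot be told apart.

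For CREB1(A297V), the share of members called between methylated and unmethylated DNA was no larger than that of all 8-mers. Of 48 members, 5 were called higher, where 10.4% of all 8-mers were, and 1 was called lower, where 11.1% were. In the same flanks, 9 of 48 TTGCAC and 7 of 48 TTGTGC 8-mers were higher. With a central CG kept, 22 of 48 TTACGT, 3 of 48 TTGCGT and 0 of 48 TGACGT 8-mers were higher, and 0 of each were lower. The median difference was 0.23, against 0.02 over all 8-mers. atTTGCGC had 0.574 and 0.954 on methylated and -0.782 and -0.764 on unmethylated DNA, a difference of 1.54 ± 0.25 (adjusted p = 0.000553). This call held with each array left out but was lost without spatial correction. TTGCGCga differed by 1.26 ± 0.37 (adjusted p = 0.0202), tTTGCGCt by 1.07 ± 0.24 (adjusted p = 0.00497), ctTTGCGC by 0.89 ± 0.27 (adjusted p = 0.0240) and tTTGCGCa by 0.85 ± 0.26 (adjusted p = 0.0256). aaTTGCGC differed the other way, with 0.762 and 0.930 on methylated and 1.86 and 2.17 on unmethylated DNA, by -1.17 ± 0.35 (adjusted p = 0.0235). All of these levels lay below a Z of 3. The places of the probes and the array identifier also differ between methylated and unmethylated CREB1(A297V) arrays. Their parts cannot be told apart from that of methylation.

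The 8 members with T before the core held 4 of the 5 higher calls, with a median difference of 0.78, while 0 of 16 members with A or G before it were higher and 1 was lower. This split by the base before the core was not tested. In the same T flanks, 0 of 8 TTGCAC 8-mers and 2 of 8 TTGTGC 8-mers were higher. TTGCGCga and atTTGCGC were higher on methylated DNA for both proteins, which is 2 of the 7 members called for CEBPB(V285A) and 2 of the 5 called for CREB1(A297V). The palindrome differed by 2.88 ± 1.25 for CREB1(A297V) (adjusted p = 0.107), and by 0.73 as an undivided log2 score (adjusted p = 0.00493). In log2 units above the local array median, all 17 of its probes were higher on methylated CREB1(A297V) arrays, by a median of 0.736. The median spot signal was lower on the methylated CREB1(A297V) arrays, at 722 and 642 against 1470.5 and 1857. The probe values are thus relative to the array median and are not differences in spot signal. The undivided score gave 13 members higher and 0 lower, against 5 and 1 in Z, where 15% of all 8-mers were higher and 15.4% lower on that scale. The count fell to 3 without methylated CREB1(A297V) replicate 1 and to 1 without its replicate 2. TTGCGCga lost its call without CREB1(A297V) replicate 1 on unmethylated DNA (1.26) or methylated replicate 2 (0.89), and tTTGCGCt without methylated replicate 2 (0.86). tTTGCGCa, ctTTGCGC and aaTTGCGC lost theirs without unmethylated replicate 2 or either methylated array, with differences of 0.67 to 0.97, 0.56 to 1.00 and -1.25 to -1.01.

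The response to methylation was then compared between the mutants, as the CEBPB(V285A) difference minus the CREB1(A297V) difference. Of 48 members, 2 were called higher and 0 lower, where 1.42% and 1.64% of all 8-mers were. At an unadjusted p below 0.05, 8 members were higher and 2 lower in limma. gTTGCGCg averaged 4.43 ± 0.567 on methylated and 2.00 ± 0.136 on unmethylated CEBPB(V285A) arrays, and 0.850 ± 0.267 on methylated and 0.326 ± 0.280 on unmethylated CREB1(A297V) arrays (SD, n = 2 each). Its responses differed by 1.91 ± 0.51 (adjusted p = 0.0468). aaTTGCGC averaged 2.38 ± 0.236 on methylated and 1.68 ± 0.532 on unmethylated CEBPB(V285A) arrays, and 0.846 ± 0.119 on methylated and 2.01 ± 0.219 on unmethylated CREB1(A297V) arrays. Its responses differed by 1.86 ± 0.50 (adjusted p = 0.0469). Each of these calls was lost under 6 of the 10 alternatives in processing, though both differences stayed positive. By the base before the core, the median of this difference was 0.91 over 16 members with A or G, -0.24 over 8 with C and -0.53 over 8 with T. The palindrome's responses differed by -0.82 ± 1.76 (adjusted p = 0.835), with the sign turned to 0.22 without unmethylated CREB1(A297V) replicate 1. The count was 0 without either unmethylated CEBPB(V285A) array, either methylated CEBPB(V285A) array or either methylated CREB1(A297V) array, and 1 without unmethylated CREB1(A297V) replicate 2.

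Median signals were low wherever the core sat on the probe, with some spread by place and strand that was not tested. On unmethylated CEBPB(V285A) arrays, probes with the core starting at bases 1 to 10, 11 to 20 and 21 to 30 of the variable region had median log2 signals of 0.236, 0.273 and 0.182 above the local array median. On methylated CEBPB(V285A) arrays these medians were 0.298, 0.492 and 0.312. By strand, the 281 probes with the core on the printed strand had a median of 0.343 for methylated and 0.286 for unmethylated CEBPB(V285A), and the 264 with it on the other strand had 0.378 and 0.177. These medians are small against the 4.70 and 3.27 of the 17 palindrome probes on methylated and unmethylated CEBPB(V285A) arrays.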

How the data were processed

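Per the file headers, the authors deposited 2 linear intensity values for each spot, its median signal and its median background, with no background removed. How the arrays were scanned and which spots were filtered is not given in the sources used here. A second deposited table gives the authors' own score (Z) for each 8-mer, whose steps are not stated either. Sample descriptions tied its columns to arrays, and it served as an alternative. Its Pearson correlation with the scores used here was 0.661 to 0.869 per array, and its Spearman correlation 0.783 to 0.953.

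From each probe's log2 median signal, the local median of a 15 by 15 spot window was subtracted. Each 8-mer took the median over the probes that hold it on either strand, with at least 8 probes required. Within an array, the Z-score centres this value on the median of all 8-mers and scales it by their median absolute deviation times 1.4826. A linear model with a coefficient per group was fitted to all 10 arrays with limma 3.58.1 (R 4.3.3), using eBayes and a variance trend, which left 5 residual degrees of freedom. All p-values are two-sided, with Benjamini-Hochberg adjustment over 32896 8-mers in each of 7 comparisons. The scoring and the fit were tested on simulated data. The number of arrays limits the precision, and no counts underlie these values.

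Named members are the palindrome, the 4 members with 1 base before the core and A after it, the 5 highest and the lowest in each group, up to 3 called members in each direction per comparison, and all called members where 5 or fewer were called. Named probes are the 3 highest and 3 lowest that hold the palindrome. The other members named by sequence were chosen after their values were seen. The members, lists and tests were chosen with earlier results of these data known. Alternatives changed the spatial correction, background correction, normalization between arrays, scale, summary over probes, variance trend, replicate block and arrays used. Leaving out probes that hold TGACG or TTACG was an alternative chosen after seeing the data.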

Additional observations from a re-analysis of the deposited data

Results flagged for a closer look

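For 2 members the response to methylation differed between CEBPB(V285A) and CREB1(A297V) by a test of the difference itself. gTTGCGCg, which has a second CG next to the core, had responses that differed by 1.91 in Z, and aaTTGCGC had responses that differed by 1.86. gTTGCGCg was 2.44 higher on methylated DNA for CEBPB(V285A), and the sign was positive for both proteins. aaTTGCGC was called lower on methylated DNA for CREB1(A297V), at -1.17, and was 0.69 higher for CEBPB(V285A), which was not called. Both calls were lost without any 1 of the 4 CEBPB(V285A) arrays or either methylated CREB1(A297V) array, and that of gTTGCGCg also without unmethylated CREB1(A297V) replicate 2. Both calls were also lost without spatial correction, with normexp, with signal over background, with quantile normalization, with the authors' scores and without probes that hold TGACG or TTACG, 6 of the 10 alternatives in processing. With the arrays named above left out in turn, gTTGCGCg ranged from 1.51 to 2.31, and aaTTGCGC stayed positive in each case.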

How the results depend on the processing

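Members were higher for CEBPB(V285A) than for CREB1 and for CREB1(A297V) in all called cases under every alternative run, while the methylation counts and the comparison of CREB1(A297V) with CREB1 moved with the processing. Counts of called members beyond 1.5 times, or under it by as much, are given here, and their causes were not tested. For CEBPB(V285A) against CREB1 (21) the count was 32 with a trimmed mean over probes and 13 with the authors' deposited Z-scores. For CEBPB(V285A) against CREB1(A297V) on unmethylated DNA (31) it was 20 with the authors' scores. For CREB1(A297V) against CREB1 (2) it was 10 with the trimmed mean, 6 with normexp, 1 without spatial correction, with signal over background or with the authors' scores, and 0 with the 4 arrays that share an identifier. For methylation of CEBPB(V285A) (7) it was 30 with the median-centred log2 score, 13 with the trimmed mean, and 4 without spatial correction or with signal over background. For methylation of CREB1(A297V) (6) it was 16 with the trimmed mean, 13 with the median-centred log2 score, 10 without a variance trend, 3 with the authors' scores, 2 without spatial correction or with normexp, and 1 with signal over background. For the difference of responses (2) it was 12 with the median-centred log2 score, 8 with the trimmed mean, and 0 without spatial correction, with normexp, signal over background or quantile normalization, and without probes that hold TGACG or TTACG.

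With each array left out in turn, the counts ranged from 7 to 26 for CEBPB(V285A) against CREB1, 0 to 8 for CREB1(A297V) against CREB1, 22 to 32 and 21 to 34 for CEBPB(V285A) against CREB1(A297V) on unmethylated and methylated DNA, 3 to 8 and 1 to 7 for methylation of CEBPB(V285A) and CREB1(A297V), and 0 to 3 for the difference of responses. The palindrome changed sign in comparisons where it was not called. For CREB1(A297V) against CREB1 it was 0.621 without spatial correction, 0.0950 with the trimmed mean, and -1.28 to 0.799 with each array left out. For methylation of CEBPB(V285A) it was -0.0148 with the trimmed mean. Its difference of responses was 0.704 with the median-centred log2 score, 2.26 with normexp, 1.95 with quantile normalization, 47.9 with the authors' scores, and -1.86 to 0.220 with each array left out. tTTGCGCt for methylation of CREB1(A297V) was -0.0263 with the authors' scores. Over the 29 differences of named members, 509 of 588 alternative values kept direction and side of the threshold, 63 kept direction but lost the call, and 5 gained it. Deviations of same-numbered replicates correlated at r from -0.213 to 0.333 over 10 pairs of groups. The highest value was between CREB1(A297V) and CREB1 on unmethylated DNA, which share an identifier. The main fit used no pairing. With the replicate block the counts on unmethylated DNA were 23 for CEBPB(V285A) against CREB1, 2 for the CREB1 mutant against its wild type and 32 between the mutants. They were 7 and 7 for methylation of CEBPB(V285A) and CREB1(A297V), 33 for the methylated comparison of the mutants and 2 for the difference of responses.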
